A study of Mus musculus with 16 samples.

Results

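The genes of the ALK1 branch of bone morphogenetic protein (BMP) signalling were followed in the endothelium of mouse embryos of 6 Notch1 genotypes. They are the receptors Acvrl1, Eng and Bmpr2, the intracellular Smad proteins Smad1, Smad5, Smad6 and Smad7, and the targets Id1, Id2 and Id3. They were chosen by name and not by a measured value, and they are 10 of the 22096 gene symbols in the deposited tables. All 10 passed the filter on low values. Cells carrying the surface protein CD31 had been sorted by flow cytometry from whole embryos at embryonic day 9.5. Each of the 16 libraries thus mixes the endothelium of all vascular beds, and platelet and blood markers were detected as well. Whether a library was made from a single embryo or a pool is not stated in the labels. The p-values therefore cover the spread from library to library, which may be technical.

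The genotypes combine 4 alleles. The 12 allele is a Notch1 whose intracellular domain was exchanged for that of Notch2, the - allele is a Notch1 deletion, the vg allele carries the substitution V1744G, which moves the cleavage that frees the intracellular domain and makes the freed fragment less stable, and + is wild type. The genotypes were 12/- (3 libraries), 12/vg (1 library), +/- (3), +/vg (3), +/12 (3) and +/+ (3). Per the labels, endothelial development was disturbed in 12/- embryos, partly disturbed in 12/vg embryos and normal in the other 4 genotypes, which are called the normal genotypes here. No label names the exons removed in the - allele, and whole-gene Notch1 values do not check that allele: they ran from 15.4 to 19.7 scaled FPKM in 12/- libraries, against 14.5 to 16.0 in +/12 libraries.

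Acvrl1 encodes ALK1, a type I receptor that is found mainly on endothelial cells. With the type II receptor Bmpr2 and the co-receptor endoglin, the product of Eng, it binds the circulating ligands BMP9 and BMP10, encoded by Gdf2 and Bmp10, and phosphorylates Smad1 and Smad5. These enter the nucleus with Smad4 and activate target genes, among them Id1, Id2 and Id3, which encode inhibitors of basic helix-loop-helix transcription factors, and Smad6 and Smad7, which encode proteins that inhibit the same pathway. In developing vessels ALK1 and Notch signalling share target genes, and loss of ALK1 or endoglin in mice and humans gives arteriovenous malformations.

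Values are FPKM (fragments per kilobase of transcript, relative to the mapped fragments of the library), summed over the transcripts of a gene and divided by a scaling factor of the library. The aligned sequence behind a library was 0.262 gigabases for 12/vg and 0.189 gigabases for replicate 2 of +/-, and between 1.11 and 1.80 gigabases for the other 14. The libraries carry numbers from 203 to 248 (9 libraries, the low range) or from 371 to 380 (7 libraries, the high range). All 12/-, 12/vg and +/12 libraries and the third replicates of +/- and +/vg lie in the low range, and all +/+ libraries in the high range. The labels do not explain these numbers.

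By level per transcript length, Id3 and Id1 led the group and the inhibitory Smads stood last. Id3 averaged 264 scaled FPKM over all 16 libraries and Id1 107, and Id1 stood above 95.8% of the 10550 genes tested. The co-receptor Eng averaged 63.7 scaled FPKM and Bmpr2 26.3. Id2, at 16.0, was the least abundant of the 3 Id genes. Acvrl1 averaged 11.8, Smad1 10.6, Smad5 8.24, Smad6 7.74 and Smad7 5.20 scaled FPKM, so Eng transcripts outnumbered those of Acvrl1 in every library. The other type I receptors for BMPs had lower means than Acvrl1 over all libraries, with 9.66 for Acvr1, 3.35 for Bmpr1a and 0.0668 for Bmpr1b. Acvr1 ran from 7.27 to 11.6 over the libraries. In the libraries of the normal genotypes Acvrl1 ran over a similar range, 7.93 to 11.6, with a mean of 10.3. The ligand genes Gdf2 and Bmp10 were listed at 0 in 15 and 14 of the 16 libraries, while Bmp4 averaged 11.3. Smad4, the common partner, averaged 9.84 scaled FPKM, while Smad9, the close relative of Smad1 and Smad5, averaged 0.155 and Id4 0.263.

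**Figure D1:**
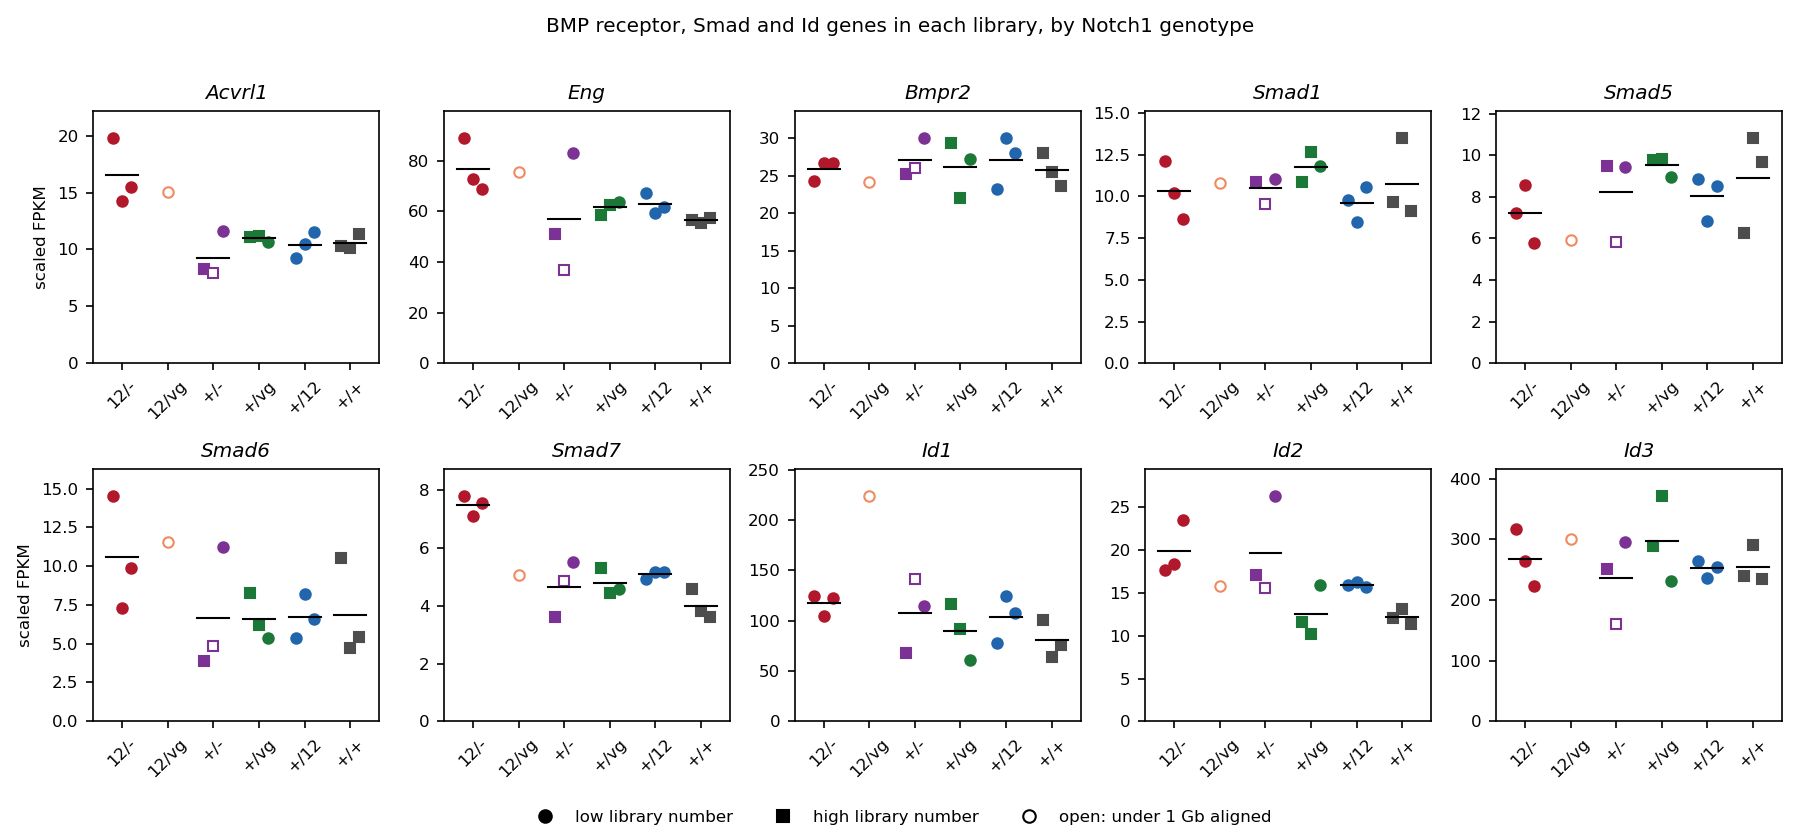
Scaled FPKM (linear axes from 0) of each of the 10 genes in every library, by Notch1 genotype. Lines are genotype means, circles and squares are libraries of the low and high number range, and open symbols are the 2 libraries under 1 gigabase. For Acvrl1 (14.2 to 19.8) and Smad7 (7.11 to 7.80) all 3 12/- libraries lie above all 12 libraries of the normal genotypes.

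Of the receptors, Acvrl1 rose in 12/- endothelium, Eng was higher without passing the test, and Bmpr2 in 12/- overlapped each normal genotype. Acvrl1 (chromosome 15, 100958967 to 100975767, mm9) had 19.8, 14.2 and 15.5 scaled FPKM in the 12/- libraries and 15.0 in the 12/vg library. The +/- libraries had 8.30, 7.93 and 11.6, the +/vg libraries 11.1, 11.2 and 10.7, the +/12 libraries 9.25, 10.4 and 11.5, and the +/+ libraries 10.3, 10.1 and 11.3. Every 12/- library exceeded the highest normal library, and the 4 normal genotypes overlapped one another. Against the mean of the normal genotypes the log2 fold change was 0.63 ± 0.12 (SE, limma adjusted p = 0.0224), on a scale of log2(scaled FPKM + 1). In order of their means, 12/- (16.5) stood apart from +/vg (11.0), while +/vg, +/+ (10.6), +/12 (10.4) and +/- (9.29) each overlapped the next. In bulk samples a change in RNA per cell and a change in the share of cells that express a gene cannot be told apart.

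Eng (chromosome 2, 32502114 to 32538189, mm9) had 88.9, 72.6 and 68.9 scaled FPKM in the 12/- libraries and 75.5 in 12/vg. It had 50.9, 36.9 and 83.1 in +/-, 58.6, 62.4 and 63.9 in +/vg, 67.5, 59.4 and 61.6 in +/12, and 56.8, 55.6 and 57.2 in +/+ libraries. The 12/- libraries lay above all +/vg, +/12 and +/+ libraries but overlapped +/-, whose replicate 3 was the second highest of all. The fold change against the mean of the normal genotypes was 0.38 ± 0.17 on the log2 scale and did not pass (limma adjusted p = 0.415). Bmpr2 (chromosome 1, 59821480 to 59927703, mm9) ranged from 24.3 to 26.7 scaled FPKM in 12/- libraries and had 24.2 in 12/vg, against 22.1 to 30.0 in the 12 normal libraries. Its log2 difference was -0.03 ± 0.11, with a 95% interval from -0.26 to 0.20, which does not reach the 0.63 of Acvrl1. The ratio of Acvrl1 to Bmpr2 within a library was accordingly 0.533 to 0.812 in 12/- and 0.621 in 12/vg, against 0.305 to 0.388 in +/-, 0.376 to 0.506 in +/vg, 0.348 to 0.411 in +/12 and 0.366 to 0.480 in +/+ libraries. The ratio did not overlap between 12/- and the normal genotypes, as Acvrl1 itself did not, so it is no separate result.

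The summed level of endothelial markers also reached its highest values in 12/- libraries, with an overlap. The 10 pan-endothelial markers looked at, among them Pecam1, Cdh5, Kdr, Tek and Emcn, were all detected. Their summed level was 974 to 1153 scaled FPKM in 12/- libraries and 962 in 12/vg. It was 901 to 999 in +/-, 917 to 959 in +/vg, 868 to 987 in +/12 and 845 to 950 in +/+ libraries. Single markers did not share a pattern. Pecam1 had 72.7 to 89.2 in 12/-, above all 12 normal libraries, as 1.91% of all genes were. Its highest values there were 71.8 in +/-, 65.0 in +/vg, 61.8 in +/12 and 50.8 in +/+ libraries. Kdr, at 83.4 to 103.6 in 12/-, lay above all +/vg, +/12 and +/+ libraries and overlapped +/- (75.2 to 86.7). Tek had 28.1 to 31.2 in 12/-, below the 31.8 to 34.8 in +/+, and overlapped the other normal genotypes. Emcn had 176 to 223 in 12/- and overlapped every normal genotype, with 172 to 210 in +/+ and 208 to 237 in +/12. The 7 mesenchymal and mural markers summed to 15.0 to 30.0 in 12/-, against 20.3 to 49.2 in the normal libraries, and the 7 erythroid markers to 76.4 to 325 in 12/- and 23.8 in 12/vg, against 88.4 to 239 in the normal libraries. The 12/vg library thus had the lowest erythroid sum of all 16. The sums of the 5 platelet and blood markers (340 to 1432 in 12/-, against 238 to 1843), the 4 epithelial (17.2 to 32.0, against 4.29 to 61.2), 6 of 7 cardiomyocyte (1.67 to 7.94, against 1.60 to 18.7) and 6 neural markers (0.430 to 1.14, against 0.414 to 3.18) overlapped the normal libraries. Of the platelet and blood markers, Pf4 ran from 225 to 1778 over the libraries, and Ptprc from 0 to 0.0522. Some cardiomyocyte and neural markers, such as Nkx2-5 and Neurog2, were listed at 0 in part of the libraries. Their part in the differences of the BMP genes was not tested.

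The reference sequence of the Eng promoter is shown because Eng is the only one of the 2 receptor genes in the RefSeq table, Eng and Bmpr2, whose window holds the Smad box CAGAC. These are the 250 bases before the annotated start (GRCm38.p6, chr2:32646345-32646594, plus strand), with capitals marking the Smad box CAGAC or its reverse complement, the first at 214 and the second at 127 bases before the start.
Eng: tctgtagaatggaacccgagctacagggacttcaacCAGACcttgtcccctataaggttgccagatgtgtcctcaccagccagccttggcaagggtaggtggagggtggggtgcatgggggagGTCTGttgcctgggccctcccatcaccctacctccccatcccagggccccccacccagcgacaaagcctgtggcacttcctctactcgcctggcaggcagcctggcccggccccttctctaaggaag
The 5 letters CAGAC occur on either strand in 49.6% of 32851 mouse promoter windows of 300 bases, so a match is common and is not a binding site by itself. Bmpr2 had no match to it, but held the 6 letters GGCGCC, which BMP Smads can bind, and TGGGAA, the core bound by the Notch partner RBPJ, 105 and 214 bases before the start. GGCGCC occurs in 11.9% and TGGGAA in 25.6% of these windows. Both strands were searched, and the motifs do not overlap in any member's window. Acvrl1, Smad7 and Id1 had no entry in the table, so 7 of the 10 genes, with 9 windows, were looked at.

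The receptor-regulated Smads, which carry the signal from the receptors to the nucleus, did not pass the test in either direction. Smad1 (chromosome 8, 81862297 to 81923367, mm9) had 12.1, 10.2 and 8.67 scaled FPKM in 12/- and 10.8 in 12/vg, against 8.44 to 13.5 in the normal libraries with a median of 10.7. All 3 12/- libraries lay inside the normal range. Its log2 difference from the mean of the normal genotypes was -0.04 ± 0.12 with a 95% interval from -0.30 to 0.22 (limma adjusted p = 0.932). Smad5 (chromosome 13, 56804370 to 56843739, mm9) had 7.25, 8.58 and 5.79 in 12/- and 5.93 in 12/vg, with 9.47, 5.82 and 9.46 in +/-, 9.76, 9.81 and 8.96 in +/vg, 8.84, 6.82 and 8.52 in +/12, and 6.28, 10.8 and 9.68 in +/+ libraries. The 12/- libraries lay below all +/vg libraries and overlapped the other normal genotypes. The difference from the mean of the normal genotypes, -0.23 ± 0.16 on the log2 scale, did not pass (limma adjusted p = 0.641), nor did that from +/vg, -0.37 ± 0.21 (limma adjusted p = 0.608). In the RefSeq windows Smad1 held none of the 3 motifs, and the 3 windows of Smad5 held GGCGCC in a pair of overlapping windows and CAGAC and TGGGAA in the remaining one.

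The inhibitory Smads stood higher in 12/- endothelium, Smad7 past the test and Smad6 not. Smad7 (chromosome 18), which blocks activated type I receptors, had 7.80, 7.11 and 7.56 scaled FPKM in the 12/- libraries, and 5.09 in the 12/vg library. It had 3.63, 4.85 and 5.52 in +/-, 5.32, 4.44 and 4.60 in +/vg, 4.94, 5.18 and 5.18 in +/12, and 4.58, 3.82 and 3.62 in +/+ libraries. The 12/- libraries lay close to one another and above every other library, the 12/vg library included. Against the mean of the normal genotypes the log2 fold change was 0.60 ± 0.10 (SE, limma adjusted p = 0.0122). By their means 12/- (7.49) was followed by +/12 (5.10), +/vg (4.79), +/- (4.67) and +/+ (4.01), and from +/12 on each genotype overlapped the next. The ratio of Smad7 to Smad1 was 0.645 to 0.872 in 12/- and 0.470 in 12/vg. It was 0.333 to 0.508 in +/-, 0.351 to 0.492 in +/vg, 0.490 to 0.614 in +/12 and 0.283 to 0.472 in +/+ libraries. The ratio did not overlap between 12/- and the normal genotypes, as Smad7 itself did not, so it is no separate result.

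Smad6 (chromosome 9, 63800882 to 63869866, mm9), which acts mainly on BMP signalling, had 14.5, 7.32 and 9.89 scaled FPKM in 12/- and 11.6 in 12/vg. It had 3.88, 4.83 and 11.2 in +/-, 8.27, 6.19 and 5.34 in +/vg, 5.38, 8.20 and 6.62 in +/12, and 10.5, 4.69 and 5.41 in +/+ libraries. Single libraries of +/- and +/+ reached the level of 12/-, and the groups overlapped. The log2 fold change of 0.59 ± 0.28 was about as large as that of Smad7, but its standard error was wider and it did not pass (limma adjusted p = 0.441). The Smad6 window held none of the 3 motifs.

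Among the Id genes none passed the test, and the 3 did not share a pattern. Id1 (chromosome 2, 152562009 to 152563146, mm9) had 125, 104 and 122 scaled FPKM in 12/- and 224 in 12/vg. It had 68.2, 141 and 114 in +/-, 116, 91.6 and 60.7 in +/vg, 77.7, 125 and 107 in +/12, and 101, 64.0 and 76.0 in +/+ libraries. The 12/- libraries lay above all +/+ libraries and overlapped the other normal genotypes, and the highest levels of all were in the 2 libraries under 1 gigabase, 12/vg (224) and +/- replicate 2 (141). The difference of 12/- from the mean of the normal genotypes was 0.34 ± 0.23 on the log2 scale (limma adjusted p = 0.619).

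Id2 (chromosome 12, 25778663 to 25780957, mm9) had 17.7, 18.4 and 23.6 scaled FPKM in 12/- and 15.8 in 12/vg. It had 17.0, 15.6 and 26.3 in +/-, 11.6, 10.2 and 16.0 in +/vg, 15.9, 16.2 and 15.7 in +/12, and 12.1, 13.1 and 11.4 in +/+ libraries. The 12/- libraries exceeded all +/vg, +/12 and +/+ libraries and overlapped +/-, where replicate 3 was the highest of all 16. The log2 fold change against the mean of the normal genotypes, 0.41 ± 0.15, did not pass (limma adjusted p = 0.323). Id3 (chromosome 4, 135699736 to 135701307, mm9), the most abundant of the 10 genes, had 317, 264 and 223 scaled FPKM in 12/- and 300 in 12/vg, against 161 to 371 in the normal libraries with a median of 253. All 3 12/- libraries lay within the normal range, and the log2 difference was 0.06 ± 0.18 with a 95% interval from -0.33 to 0.44 (limma adjusted p = 0.936).

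The Id promoters are shown because these genes are textbook direct targets of the BMP Smads, while their RNA here did not pass the test. These are the 250 bases before the RefSeq start (GRCm38.p6), for Id2 chr12:25096093-25096342 on the minus strand and for Id3 chr4:136143572-136143821 on the plus strand. Capitals mark GGCGCC in Id2, 231 bases before the start, and CAGAC or its reverse complement in Id3, 167 and 68 bases before the start.
Id2: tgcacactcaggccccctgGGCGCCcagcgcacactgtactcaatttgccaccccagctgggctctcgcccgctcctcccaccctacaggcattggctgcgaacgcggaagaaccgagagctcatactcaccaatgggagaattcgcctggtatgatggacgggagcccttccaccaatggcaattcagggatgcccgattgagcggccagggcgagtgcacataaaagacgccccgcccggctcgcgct
Id3: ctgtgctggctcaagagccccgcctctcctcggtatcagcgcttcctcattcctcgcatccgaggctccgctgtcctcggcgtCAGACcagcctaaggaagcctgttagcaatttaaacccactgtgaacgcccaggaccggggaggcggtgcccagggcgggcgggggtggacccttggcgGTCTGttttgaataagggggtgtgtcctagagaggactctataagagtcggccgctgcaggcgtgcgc
Neither window held the RBPJ core. Over the windows of all genes GGCGCC was found in 11.9% and CAGAC in 49.6%, so these letters set neither gene apart.

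Across the group, 2 of the 10 genes passed the test in 12/- against the mean of the normal genotypes, both higher, while 0.787% of the 10550 genes tested were called in that comparison, 76 of them higher and 7 lower. The fold change was positive for 7 of the 10 genes, against 49.1% of all genes, and their median was 0.36. Against +/+, where 0.607% of genes were called, Smad7 passed at 0.77 ± 0.13 (limma adjusted p = 0.0172), and Acvrl1 did not, at 0.59 ± 0.15 (limma adjusted p = 0.127). Against +/-, where 0.569% were called, Acvrl1 passed at 0.77 ± 0.15 (limma adjusted p = 0.0403) and Smad7 did not, at 0.60 ± 0.13 (limma adjusted p = 0.0713). Against +/vg (0.445% called) and +/12 (0.209% called), 0 of the 10 genes passed with limma, with 3 genes (Acvrl1, Smad7 and Id2) and 2 genes (Acvrl1 and Smad7) at an unadjusted p under 0.05, which 10.0% and 5.30% of all genes had. There the log2 fold changes were 0.54 ± 0.15 and 0.61 ± 0.15 for Acvrl1 (limma adjusted p = 0.203 against +/vg and 0.212 against +/12) and 0.55 ± 0.13 and 0.48 ± 0.13 for Smad7 (limma adjusted p = 0.102 and 0.342). These comparisons share the 12/- libraries, so they are not independent of each other.

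**Figure D2:**
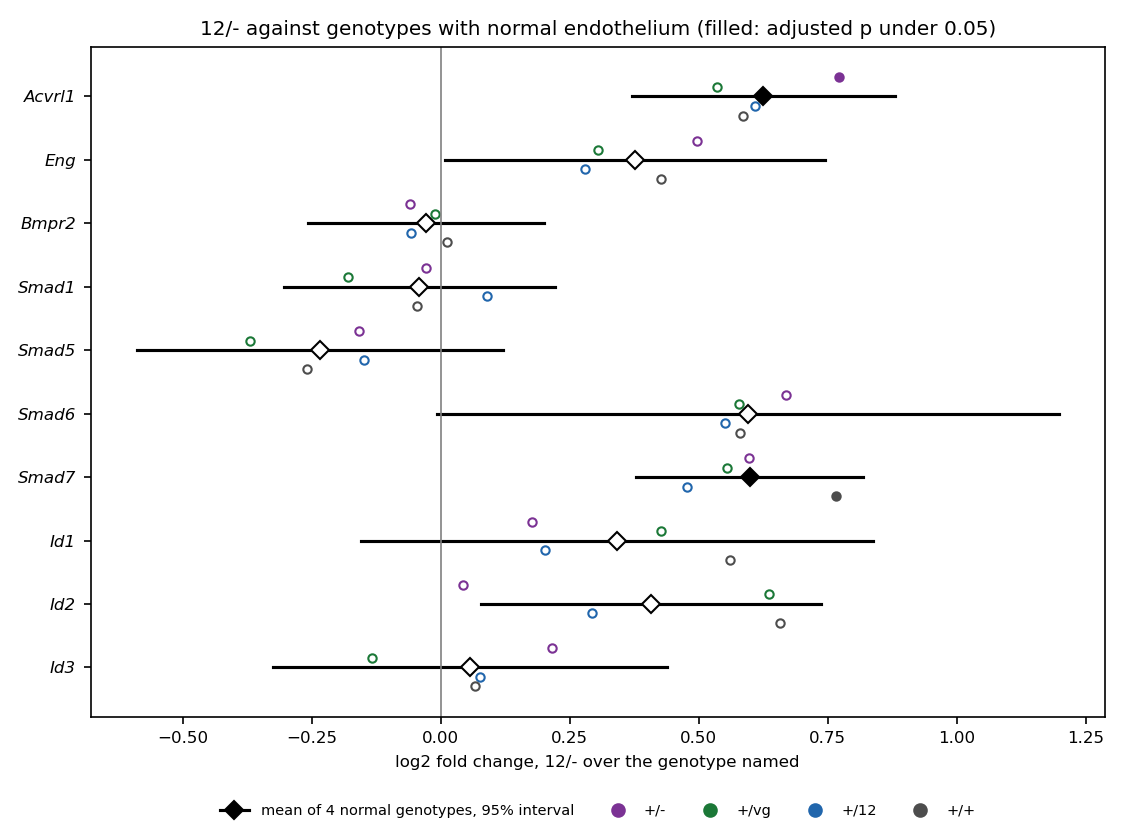
Log2 fold change of each gene in 12/- over the normal genotypes. Diamonds are the difference from the mean of the 4 normal genotypes with its 95% interval, circles that from single genotypes, and filled symbols passed at an adjusted p under 0.05. Acvrl1 and Smad7 lie to the right of 0 for every genotype, and Bmpr2, Smad1 and Id3 lie on both sides of it.

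Counted by library, 2 of the 10 genes had all 12/- values above all 12 normal libraries, which held for 1.91% of all genes. For single genotypes the count was 5 against +/+ (Acvrl1, Eng, Smad7, Id1 and Id2), where 10.4% of all genes did so, and 4 against +/12 (Acvrl1, Eng, Smad7 and Id2), where 7.93% did. It was also 4 against +/vg, with the same genes as against +/12 and a background of 10.2%, and 2 against +/- (Acvrl1 and Smad7), with 7.74%. Only Smad5 lay wholly below a normal genotype, and only below +/vg, which held for 10.5% of all genes. Acvrl1 and Smad7 were thus the genes separated from each normal genotype in turn.

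None of these genes passed the test between a heterozygous genotype and wild type. With limma, 0 of the 10 passed in +/-, +/vg or +/12 against +/+, where 0% of all genes did, and 1, 0 and 1 of them had an unadjusted p under 0.05, as had 7.51%, 7.52% and 5.37% of all genes. These were Id2 in +/-, at 0.61 ± 0.19 (limma adjusted p = 0.545), and Smad7 in +/12, at 0.29 ± 0.13 (limma adjusted p = 0.898). Id2 averaged 19.6 ± 5.83 scaled FPKM in +/- and 12.2 ± 0.893 in +/+ (SD, n = 3 each). The highest +/- value, 26.3, came from the low-range library of +/-, while all +/+ libraries lie in the high range. All +/12 libraries lie in the low range, so for Smad7 in +/12 the range and the genotype cannot be told apart. The interaction asks whether the deletion acts differently opposite a 12 allele than opposite a wild-type allele, as (12/- minus +/12) minus (+/- minus +/+). Acvrl1 had 0.80 ± 0.21 on the log2 scale in it, with an unadjusted p under 0.05, as had 6.56% of all genes, and did not pass (limma adjusted p = 0.418). The other 9 genes did not reach an unadjusted p under 0.05, and 0.0474% of all genes passed. The +/- and +/+ libraries in the interaction also differ in part in number range.

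The single 12/vg library has no replicate, and its values are a description. It lay above all 12 normal libraries for Acvrl1 (15.0 scaled FPKM), Smad6 (11.6) and Id1 (224), as it did for 13.7% of all genes tested. For Acvrl1 it lay within the 12/- range of 14.2 to 19.8, and for Eng (75.5) too. For Smad7 (5.09), in contrast, it lay inside the normal range of 3.62 to 5.52 and under all 12/- libraries, and for Id2 (15.8) it was under all 12/- libraries as well. This library is one of the 2 shallow ones, and it had the lowest erythroid marker sum; their part in these positions was not tested.

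The range of the library number could be compared within +/- and +/vg, with 1 low and 2 high libraries each. Eng and Id2 were higher in the low-range library of both genotypes: Eng had 83.1 against 36.9 and 50.9 in +/-, and 63.9 against 58.6 and 62.4 in +/vg, and Id2 had 26.3 against 15.6 and 17.0, and 16.0 against 10.2 and 11.6. Acvrl1 was higher in the low-range library of +/- (11.6 against 7.93 and 8.30) and lower in that of +/vg (10.7 against 11.1 and 11.2). Smad7 was higher in that of +/- (5.52 against 3.63 and 4.85) and between the others in that of +/vg (4.60, with 4.44 and 5.32). Among libraries of the low range alone, 12/- was set against the mean of +/-, +/vg and +/12, since no +/+ library lies there. The fold changes were 0.55 ± 0.14 for Acvrl1 and 0.48 ± 0.08 for Smad7, with only 1 library each of +/- and +/vg. With the range as a covariate, against the mean of all normal genotypes, they were 0.50 ± 0.14 (limma adjusted p = 0.277) and 0.52 ± 0.13 (limma adjusted p = 0.155). Both kept their direction in each of these, and neither passed. Eng and Id2 were singled out by the +/- and +/vg libraries, which also set the covariate and enter the low-range fit. That their fold changes shrank was therefore built in and is no separate result. How many of all genes were highest in both low-range libraries was not counted. In the low range, against the mean of +/-, +/vg and +/12, Eng had 0.14 ± 0.11. With the covariate, against the mean of all normal genotypes, Eng had 0.085 ± 0.18 (limma adjusted p = 0.969). Id2 had 0.062 ± 0.11 in the low range and 0.064 ± 0.12 with the covariate (limma adjusted p = 0.967). Against +/+ with the covariate Eng had -0.074 ± 0.26 (limma adjusted p = 0.974) and Id2 0.067 ± 0.17 (limma adjusted p = 0.968), beside 0.43 and 0.66 without it. The 12/- and +/12 libraries all lie in the low range, so the log2 fold changes of 0.61 and 0.48 between them are within that range.

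**Figure D3:**
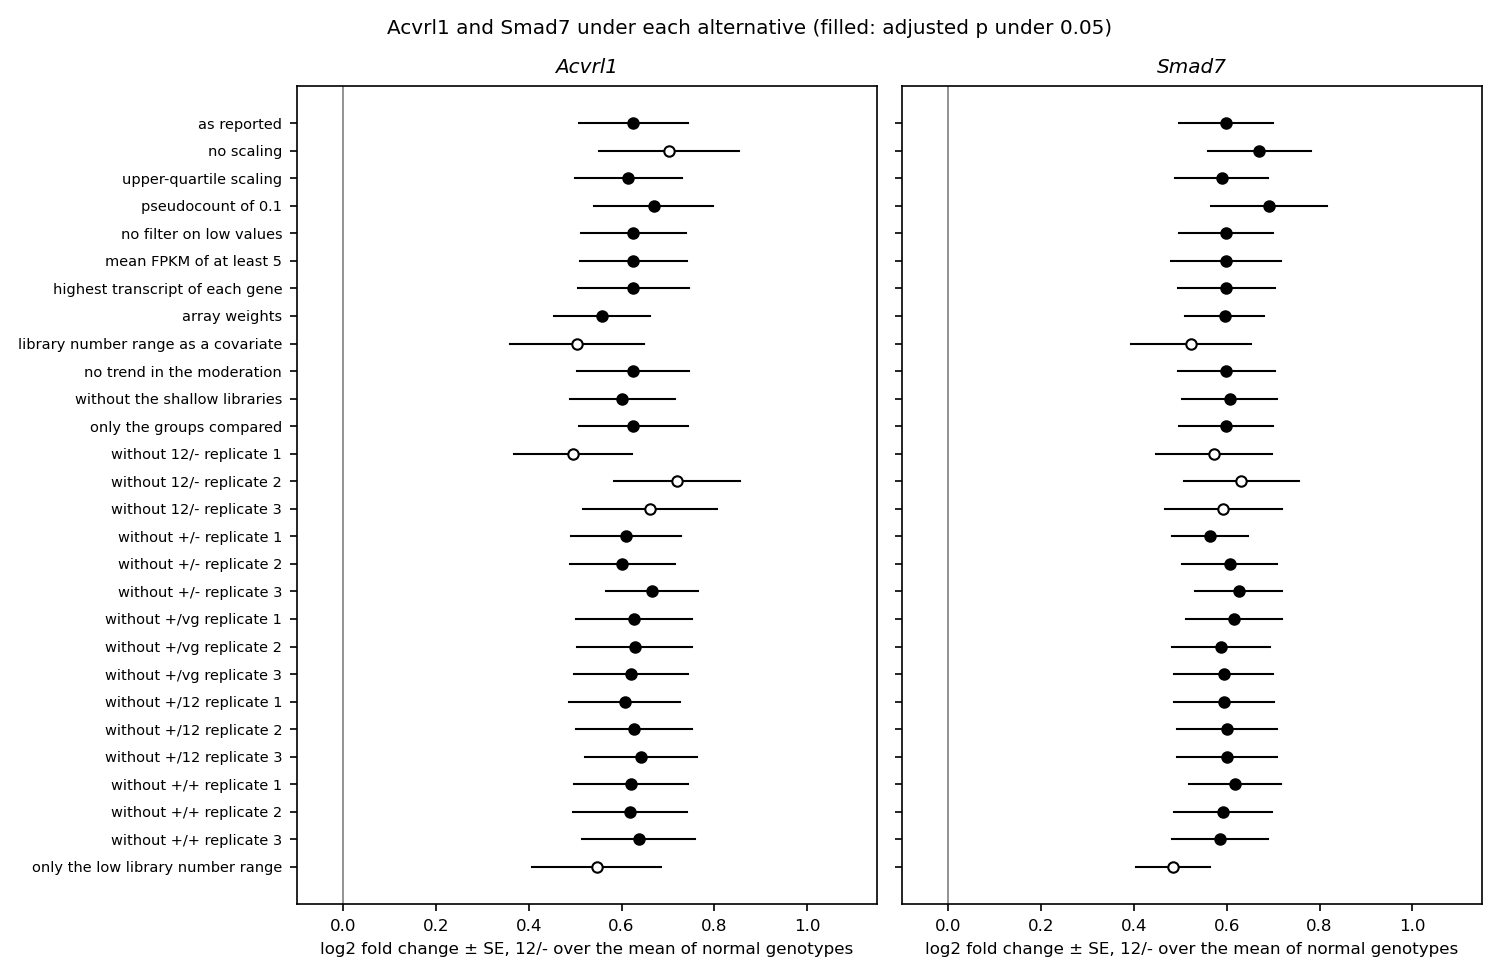
Log2 fold change ± SE of Acvrl1 and Smad7 in 12/- over the mean of the normal genotypes, as reported (top) and under each of 27 other settings. The setting of the low number range holds no +/+ library. Filled points passed at an adjusted p under 0.05, which was so in 21 settings for Acvrl1 and in 22 for Smad7. All values lie to the right of 0, and leaving out any of the 3 12/- libraries gave open points.

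The calls against the mean of the normal genotypes rested on having all 3 12/- libraries. Leaving out any one of the 3 ended the call of both genes, at 0.50 to 0.72 for Acvrl1 and 0.57 to 0.63 for Smad7 on the log2 scale, with limma adjusted p-values up to 0.260 and 0.124. Calls over all genes fell as well: 27, 41 and 61 higher and 1, 1 and 2 lower without 12/- replicate 1, 2 and 3, beside 76 and 7 with all libraries. The loss is thus not particular to these 2 genes. Leaving out any one library of the normal genotypes did not end their calls. The call of Smad7 against +/+ held in 11 of 17 other settings and that of Acvrl1 against +/- in 5 of 17. That of Smad7 was lost without +/+ replicate 2 or 3 and without 12/- replicate 1 or 3, and that of Acvrl1 without +/- replicate 1 or 2 and without any 12/- library, with limma adjusted p-values up to 0.484 and 0.527 over all the settings.

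Genes that act side by side in the pathway were compared across the 11 deeper libraries of the normal genotypes, in 6 pairs. Smad6 and Smad7 had r = 0.73 and Spearman's rho = 0.69 (permutation p = 0.0126 and 0.0222, adjusted over the 6 pairs 0.0670 and 0.0933). Without the 2 libraries farthest from the median of Smad6, r was 0.82. Smad1 and Smad5 had r = 0.67 and rho = 0.66 (permutation p = 0.0223 and 0.0311, adjusted 0.0670 and 0.0933). Without the 2 libraries farthest from the median of Smad1, r was 0.38. Leaving these out narrows the range of Smad1, which by itself can lower r. Neither pair passed the adjustment. Acvrl1 and Eng had r = 0.48 and rho = 0.48 (permutation p = 0.136 and 0.138, adjusted 0.272 and 0.275), and r was 0.60 without 2 libraries. The Id genes did not vary together: r was 0.13 for Id1 and Id2, 0.16 for Id1 and Id3 and -0.19 for Id2 and Id3, with rho of 0.05, 0.24 and -0.15 (permutation adjusted p = 0.718 for each r, and 0.903, 0.730 and 0.810 for rho). Within the 6 libraries of the high range r was 0.80 for Smad6 and Smad7, 0.56 for Smad1 and Smad5, 0.89 for Acvrl1 and Eng, -0.56 for Id1 and Id2, 0.18 for Id1 and Id3 and -0.46 for Id2 and Id3. The low range holds 5 of these libraries, too few for a value of its own.

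**Figure D4:**
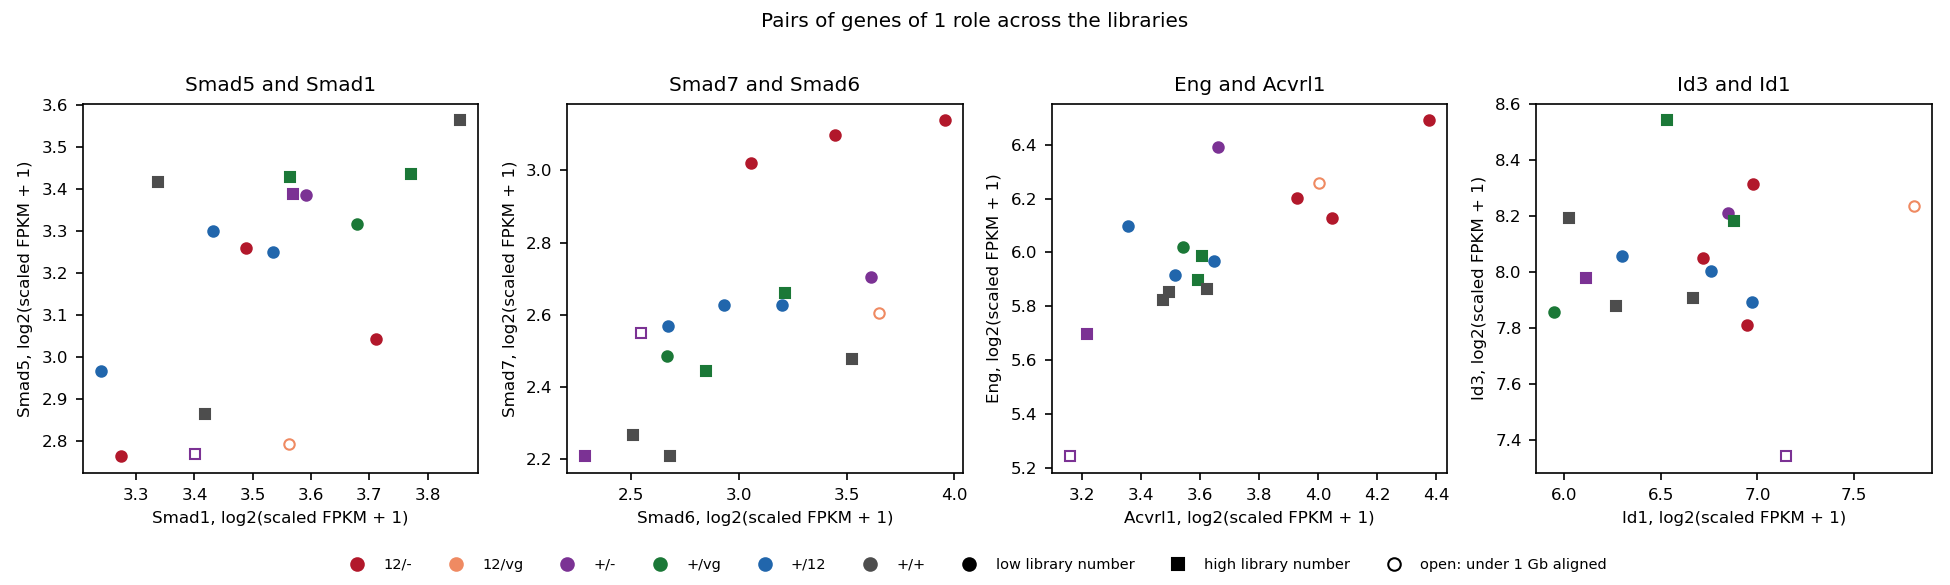
Pairs of genes that share a role, as log2(scaled FPKM + 1) in each of the 16 libraries, coloured by genotype, with circles and squares for the low and high number range and open symbols for the 2 shallow libraries. The 12/- libraries lie at the top of the Smad6 and Smad7 panel, while in the Id1 and Id3 panel the 12/vg library lies far to the right.

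Over all 14 deeper libraries, the genes whose log2 values followed a member most closely are given as a description, since the points share genotype and library range. For Acvrl1 they were Grhpr (Pearson's r = 0.93), Sema4g (0.92) and Adora2a (0.92), and within the group Smad7 came closest (0.85, place 47 among all genes). For Smad7 they were Sparcl1 (0.95), Flt1 (0.95) and Pde4b (0.94). For Id1 they were Agap3 (0.90), Lrrc59 (0.89) and Zfp688 (0.88), and Smad6 took place 10, at 0.84. Smad5 had a negative r with Acvrl1 (-0.44), Smad7 (-0.58) and Id1 (-0.59).

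All of these genes but Eng and Smad5 have a single RefSeq transcript in the tables, and those have 3 each. For Eng, transcript NM_007932 (3433 nt) took 71.0 to 80.5% of the gene's FPKM in 12/- and 85.6% in 12/vg, against 72.5 to 87.8% in +/-, 79.2 to 87.0% in +/vg, 73.2 to 81.4% in +/12 and 79.6 to 89.1% in +/+ libraries. NM_001146348, which is 3430 nt long, took 19.1 to 23.8% in 12/- libraries, against 8.03 to 17.7% in +/+ libraries. The 12/- share overlapped +/- (11.8 to 26.0%) and +/12 (14.8 to 21.1%), while +/vg had 9.36 to 17.1% and 12/vg 10.9%. Transcript shares were not compared over all genes, so there is no background for these values. The 12/- and +/+ libraries also differ in number range. For Smad5, the main transcript NM_008541 took 33.7, 61.3 and 99.98% of the gene's FPKM in the 12/- libraries and 99.7% in 12/vg, against 73.0 to 99.99% in the normal libraries, and NM_001164042 took most of the rest. Replicates 1 and 2 of 12/- thus lay below the normal range and replicate 3 within it. The transcripts of a gene share nearly all of their sequence, and the authors' program splits reads between them by a model, so these shares are estimates.

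No gene of the wider pathway passed the test. Of 45 other genes of BMP and TGF-beta signalling, 31 passed the filter on low values, and with limma 0 of them were called in 12/- against the mean of the normal genotypes, while 2 (both higher) had an unadjusted p under 0.05, as had 11.5% of all genes. The median fold change of the 31 was 0.02, with 17 positive. Of the other receptors 8 were tested, with fold changes from -0.24 to 0.43 and 2 positive, and of the Smads (Smad2, Smad3 and Smad4) 3, from -0.10 to 0.09. Ligands ran from -0.37 to 0.42 (5 tested), inhibitors and modulators from -0.27 to 0.43 (10 tested), and other targets from -0.45 to 0.36 with a median of 0.28 (5 tested, 4 positive). The 2 genes at an unadjusted p under 0.05 were Acvr2b, a type II receptor, at 0.43 ± 0.18 (limma adjusted p = 0.383), and Smurf1, a ubiquitin ligase for Smad1 and Smad5, at 0.43 ± 0.16 (limma adjusted p = 0.323). In each of the other 8 comparisons 0 of the 31 genes passed as well, with between 0 and 4 at an unadjusted p under 0.05.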

How the data were processed

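RNA of CD31-sorted endothelial cells was sequenced from tagmentation libraries, per the labels. For each of 16 libraries the authors deposited FPKM, coverage and a status for 28107 RefSeq transcripts, as cufflinks writes them, per the file headers. TopHat2 2.0.9 and the build mm9 are named in the submitters' processing notes. No version of cufflinks is named. The deposited coverage is the mean read depth over a transcript, and coverage divided by FPKM gave the aligned gigabases of a library. Read counts are unknown, so no counting interval is given.

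Transcript FPKM values were summed per symbol (Python 3.11.15, pandas 2.3.3), and 211 symbols with a status other than OK were left out. Libraries were scaled by median ratios over 8610 genes, by factors from 0.851 to 1.13. The test covered 10550 genes, each with a mean of 1 FPKM or more. log2(scaled FPKM + 1) was modelled in R 4.3.3 with limma 3.58.1 (lmFit, then eBayes with trend, two-sided) over 16 libraries in 6 groups, with 10 residual degrees of freedom, and p-values were adjusted over all 10550 genes by Benjamini-Hochberg and called under 0.05. A fold change on this scale understates that of low genes. On simulated data for 12/- against the mean of the normal genotypes, made from 10550 genes, the fit called 81 of 100 genes with a simulated log2 change of 1 and 97 of 100 with one of 2, with 4 wrong calls. Pairs were tested with 100000 permutations, two-sided.

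The 10 genes, the pathway and marker lists and the tests were chosen with earlier results of these data known. The rule for naming genes beside the members takes genes of the pathway list that were called, of which there were 0, and the 3 genes most like Acvrl1, Smad7 and Id1 in their log2 values over 14 libraries. Acvr2b and Smurf1, and pathway genes whose levels are given, were named after their values were seen. The alternatives were other scalings, pseudocounts, filters and moderation, the highest transcript of a gene, array weights, a covariate for the library number range, and leaving out libraries or groups. Fits within the low number range were added after seeing the data. The labels spell the wild type differently for replicate 1 and for replicates 2 and 3, which were taken as 1 group. Replicates were numbered in accession order. RefSeq promoter sequences are of GRCm38.p6, while gene positions are those of mm9 in the files.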

Additional observations from a re-analysis of the deposited data

Results flagged for a closer look

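The 12/vg library, which enters no test because it has no replicate, lay above all 12 libraries of the normal genotypes for Acvrl1 (15.0 scaled FPKM, against 7.93 to 11.6), for Smad6 (11.6, against 3.88 to 11.2) and for Id1 (224, against 60.7 to 141). It did so for 13.7% of all genes tested, and it holds 0.262 gigabases of aligned sequence.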

How the results depend on the processing

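Of 622 fold changes of the 10 genes under other settings, 607 kept their direction and 15 did not. In 12/- against +/12, 1 gene passed with array weights (Smad7). Of all 10550 genes, 81 were then called higher and 11 lower, beside 22 and 0 as reported. Against +/+, 0 passed with the range covariate or with only the groups compared, and 0 to 1 on leaving out a library. Of all genes, 19 were called higher and 4 lower with the covariate, beside 57 and 7 as reported. With only the groups compared the counts were 32 and 9. Leaving out a library gave 18 (without 12/- replicate 1) to 74 (without +/+ replicate 1) higher. Against +/-, 0 passed without scaling, without the filter on low values, with the highest transcript, with array weights, with the range covariate, without the shallow libraries or with only the groups compared, and 0 to 3 on leaving out a library (3, Acvrl1, Eng and Smad7, without +/- replicate 3). Without that library 127 of all genes were called higher and 29 lower against +/-, beside 54 and 6 as reported. With only the groups compared 5 of all genes were called higher and 0 lower. In the other settings named with 0, from 31 (range covariate) to 46 (no filter on low values) were called higher. Against +/vg, 2 passed with array weights (Smad7 and Id2). There 131 of all genes were called higher and 52 lower, beside 43 and 4 as reported. Against the mean of the normal genotypes, 1 passed without scaling (Smad7, with Acvrl1 at a limma adjusted p of 0.0563), 0 with the range covariate or in the low range, and 0 to 2 on leaving out a library. With the range covariate 39 of all genes were called higher and 8 lower in it, beside 76 and 7 as reported. The low-range fit set 12/- against +/-, +/vg and +/12 only.

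Some fold changes that had not passed turned. Against the mean of the normal genotypes Bmpr2 had 0.048 and Smad1 0.032 without scaling, where the median of all genes was 0.06, and Id3 had -0.011 with array weights and -0.0069 without the shallow libraries. Leaving out a library gave -0.058 to 0.013 for Bmpr2, -0.15 to 0.067 for Smad1 and -0.072 to 0.18 for Id3. Eng against +/+ had -0.074 with the range covariate, beside 0.43 without it. Id2 against +/- had -0.094 with array weights, -0.35 with the range covariate and -0.097 without the shallow libraries, and -0.097 to 0.26 on leaving out a library. Without scaling, r was 0.70 for Acvrl1 and Eng (permutation adjusted p = 0.0446), 0.85 for Smad1 and Smad5 (0.0045) and 0.24 for Id2 and Id3. The cause of these changes was not tested. Unscaled values moved the median of all genes in 12/- against +/12 to 0.11.

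No paired analysis was possible because the labels carry no replicate numbers. The 3 libraries per group, the unknown number of embryos per library and the 2 shallow libraries limit what these values show. So does the overlap of genotype with library number. For 12/- and for +/12 against +/+, the number range and the genotype cannot be told apart.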
